A study of Mus musculus with 6 samples.

Results

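Ltbp2 encodes a latent transforming growth factor beta (TGF-beta) binding protein, and it was described here with 9 related genes in fibroblasts sorted from the synovium, the membrane that lines joints. The 10 genes are the 4 latent TGF-beta binding proteins (Ltbp1, Ltbp2, Ltbp3 and Ltbp4), the 3 TGF-beta ligands (Tgfb1, Tgfb2 and Tgfb3), the fibrillins Fbn1 and Fbn2, and elastin (Eln). They were found by gene symbol, and all 10 were among the 24348 genes in the table. The family was chosen by a measured value, since the higher level of Ltbp2 after immune complexes was already known when it was put together. The members' differences between groups are therefore a description. No p-value is given for them, and where a member passed or missed the threshold of the fit over all genes, this only places it among the genes called and is no evidence for the family.

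RNA was sequenced from fibroblasts of adult wild-type C57BL/6 mice given immune complexes (IC) or vehicle, with 3 libraries in each group. Per the study's methods, IC were ovalbumin bound by rabbit antibodies to it and were injected into a vein, and joint tissue was digested with collagenase before sorting. All 6 libraries share the strain and the sort, and vehicle libraries are also labelled as control. The time between injection and collection and the number of mice per library are not given in the sources used here, so p-values measure only the spread between these libraries, which may be technical.

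TGF-beta is secreted in a latent form, in which the ligand stays wrapped in its own propeptide. Latent TGF-beta binding proteins 1, 3 and 4 can bond to that propeptide and anchor the complex in the extracellular matrix, whereas the protein made from Ltbp2 does not bind latent TGF-beta and attaches to fibrillin microfibrils. Fibrillins form the microfibrils on which elastin is laid down as elastic fibres, so these proteins connect growth factor storage with the mechanics of connective tissue such as synovium.

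The genes lie on several chromosomes of the mouse assembly GRCm38. Ltbp2 is on the minus strand of chromosome 12 (84783212 to 84876532), the chromosome that also carries Tgfb3 (86056745 to 86079041, minus strand). Chromosome 7 carries Tgfb1 (25687002 to 25705077, plus strand) and Ltbp4 (27305136 to 27337692, minus strand). Tgfb2 lies on chromosome 1 (186622792 to 186705989, minus strand), Ltbp1 on chromosome 17 (75005568 to 75392512, plus strand) and Ltbp3 on chromosome 19 (5740904 to 5758532, plus strand). Fbn1 lies on chromosome 2 (125300594 to 125507993, minus strand) and Eln on chromosome 5 (134702593 to 134747323, minus strand). All 10 are annotated as protein coding.

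The sequences just upstream of Ltbp2 and Tgfb2 are shown because these were the members whose levels differed most between groups, in opposite directions. They are from RefSeq on GRCm38.p6, read 5′ to 3′ on the gene's strand. The Ltbp2 stretch is chr12:84876533-84876741 (minus strand, 209 bases) and the Tgfb2 stretch is chr1:186705990-186706239 (minus strand, 250 bases). The Ltbp2 stretch stops 41 bases short of its RefSeq start, since those bases lie within the gene as GENCODE places it. Capitals mark CAGAC, the core of the CAGA box known to be bound by SMAD proteins, in either orientation (GTCTG on the minus strand), and TATAAA, the TATA box.
Ltbp2 upstream: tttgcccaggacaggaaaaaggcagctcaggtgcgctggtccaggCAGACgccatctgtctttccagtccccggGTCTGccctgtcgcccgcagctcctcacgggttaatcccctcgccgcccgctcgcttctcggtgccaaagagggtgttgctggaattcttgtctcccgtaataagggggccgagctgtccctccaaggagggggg
Tgfb2 upstream: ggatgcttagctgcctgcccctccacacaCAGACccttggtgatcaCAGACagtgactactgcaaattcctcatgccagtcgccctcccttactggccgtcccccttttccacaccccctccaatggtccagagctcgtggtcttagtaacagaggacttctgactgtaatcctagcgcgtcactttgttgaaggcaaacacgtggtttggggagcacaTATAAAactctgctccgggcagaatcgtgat

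Counted from the RefSeq start, Ltbp2 held CAGAC at 205 bases before it on the plus strand and at 176 bases on the minus strand. Tgfb2 held it at 221 and 204 bases before the start and held TATAAA at 31 bases. CAGAC also occurred before Ltbp1 and Ltbp3, so it was not particular to the members shown. None was found before the RefSeq starts of Ltbp4, Tgfb1 and Fbn1. Not all stretches searched lie outside the genes as GENCODE places them. The Fbn1 stretch and a stretch of Ltbp1 lie within the gene, and those of Ltbp4 lie wholly or partly within it. Over the 250 bases before a start, on both strands, CAGAC occurs in 42.2% of 32851 mouse promoters and TATAAA in 12.4%, so matches of these short words are common. The AP-1 word TGANTCA, present in 6.75% of promoters, was found in none of the 7 members with a promoter in the table. Guanine and cytosine made up 61.6% of the 250 bases before Ltbp2 and 53.6% of those before Tgfb2, against a median of 52.4% over all promoters. No entry was matched for Tgfb3, Fbn2 and Eln. A match describes the sequence and does not show binding.

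Levels within the family spanned a wide range. On the TPM scale, which divides counts by the summed exon length of a gene and rescales every library to the same total, Fbn1 had a mean of 1314 over the 6 libraries and Ltbp4 a mean of 1285. Their ranges overlapped, and Fbn1 was above Ltbp4 in only 2 of 6 libraries. Eln followed with 301.0 TPM, then Tgfb3 with 199.6, Ltbp1 with 166.7, Ltbp3 with 159.3 and Tgfb2 with 107.9. Tgfb3 and Ltbp1 overlapped in range over the libraries, although Tgfb3 was the higher in 6 of 6 libraries. Ltbp1 and Ltbp3 also overlapped, with Ltbp1 the higher in 5 of 6. Tgfb1 had a mean of 25.8 TPM, Ltbp2 11.3 and Fbn2 3.51, and their ranges did not overlap with those of their neighbours. Ltbp2 was thus the least abundant latent TGF-beta binding protein in both groups. With the longest transcript as the length, Ltbp4 came before Fbn1 and both Ltbp1 and Ltbp3 came before Tgfb3, and the lower places did not move.

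**Figure D1:**
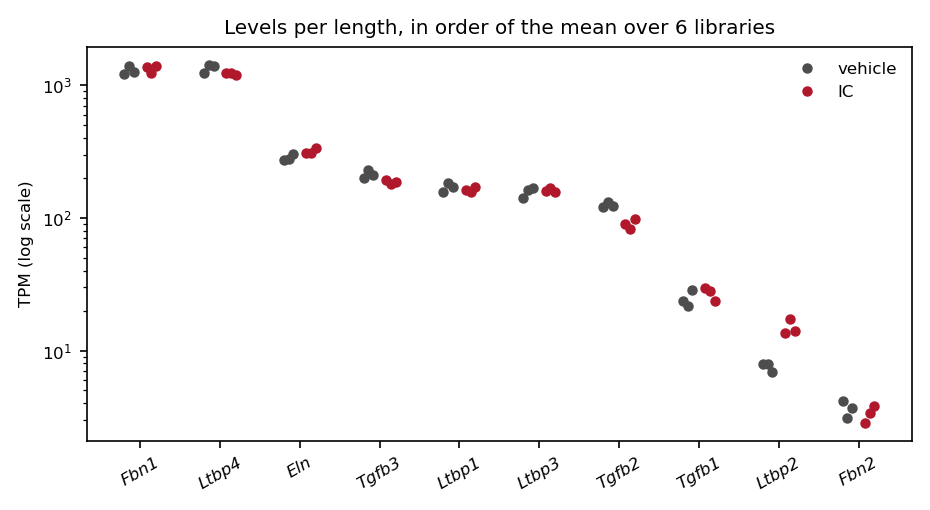
Levels of the 10 genes in TPM on a log scale, one point per library (grey, vehicle; red, IC), ordered by the mean over 6 libraries. Fbn1 and Ltbp4 stand at the top with means of 1314 and 1285 TPM, and the IC points of Ltbp2 lie above its vehicle points.

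Among the latent TGF-beta binding proteins, Ltbp2 was higher after IC. Values below are normalised read counts, which are counts divided by the library's DESeq2 size factor. Ltbp2 had 1219, 1555 and 1306 normalised counts in IC replicates 1, 2 and 3, against 710, 733 and 635 in vehicle replicates 1, 2 and 3. Every IC library was above every vehicle library. The group means were 1360 ± 174 and 693 ± 51.4 (SD, n = 3 each). The log2 fold change was 0.97 (SE 0.141), or 1.96-fold. In bulk samples, fewer cells of a type and less RNA per cell cannot be told apart, and this holds for every level given here.

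The size of the Ltbp2 difference varied little with the libraries used. With each library left out in turn its log2 fold change ranged from 0.86 to 1.04, lowest without IC replicate 2, the library with its highest value. An antisense gene, D030025P21Rik, shares 764 exon bases with Ltbp2 and had 0 to 25 counts per library. Use of strand in counting is not given in the sources used here. Whether reads in the shared bases came from one gene or the other therefore cannot be told.

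Ltbp4, which is known to be needed for elastic fibre assembly, had 88297, 87570 and 86878 normalised counts in the IC libraries and 87220, 104902 and 101499 in the vehicle libraries. The IC libraries lay close together at the low end of the vehicle range, and the groups overlapped. Its log2 fold change was −0.16 (SE 0.0802). Without vehicle replicate 1, the lowest of the vehicle libraries, it was −0.24 and passed the threshold used for calling genes (an adjusted p under 0.05 by DESeq2).

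Ltbp1, which anchors latent TGF-beta in the matrix, ranged from 18152 to 20572 after IC and from 18463 to 22493 after vehicle, with a log2 fold change of −0.09 (SE 0.0885). Ltbp3, a partner of latent TGF-beta known from bone and tooth, ranged from 15910 to 16698 and from 13987 to 17277, with a log2 fold change of 0.02 (SE 0.0889). Both genes overlapped between groups.

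**Figure D2:**
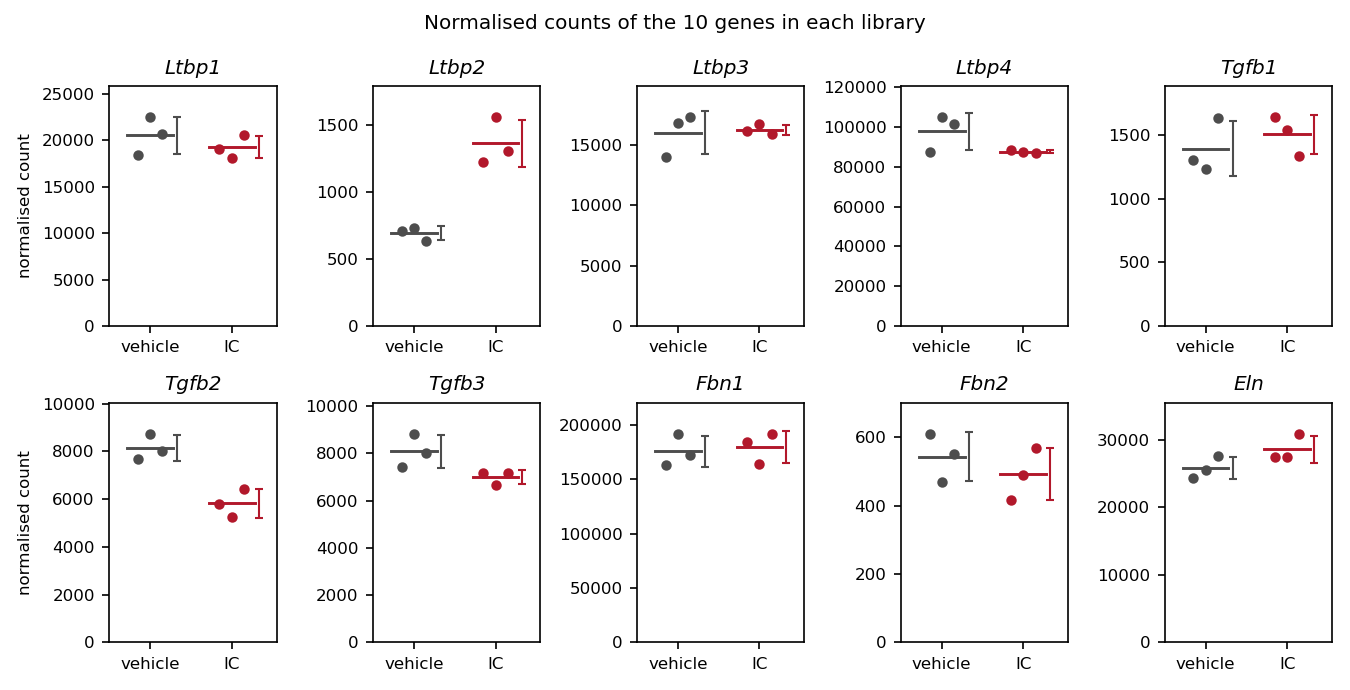
Normalised counts of each gene, one point per library, with the group mean as a line and the SD as a bar (n = 3; grey, vehicle; red, IC; each axis starts at 0). The points of Ltbp2, Tgfb2 and Tgfb3 do not overlap between groups, while those of the other 7 genes do.

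The ligands differed from one another. Tgfb2, the isoform best known from heart and craniofacial development, had 5804, 5242 and 6421 normalised counts after IC and 7675, 8741 and 8036 after vehicle. All 3 IC libraries were below all 3 vehicle libraries. Means were 5822 ± 589 and 8151 ± 542 (SD, n = 3 each). The log2 fold change was −0.49 (SE 0.0952), which is 0.714 of the vehicle level. Leaving out each library gave −0.56 to −0.42. It was called by DESeq2 but not by the quasi-likelihood test of edgeR, nor by DESeq2 with a skeletal muscle score in the fit. The overlapping antisense gene Gm29491 had 6 to 31 counts.

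Tgfb3, the most abundant ligand per length, had 7180, 6649 and 7155 normalised counts after IC and 7440, 8824 and 8013 after vehicle. The groups did not overlap, but the highest IC value and the lowest vehicle value were close. Its log2 fold change was −0.21 (SE 0.0876), and it was not called. It was −0.27 and called without vehicle replicate 1.

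Tgfb1, the isoform most studied in inflammation and fibrosis, had 1643, 1544 and 1336 normalised counts after IC and 1309, 1239 and 1640 after vehicle. The groups overlapped across most of their range. Its log2 fold change was 0.11 (SE 0.139).

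The fibrillins and elastin overlapped between groups. Fbn1, the main microfibril protein, had 184131, 163840 and 192025 normalised counts after IC and 163236, 191710 and 172365 after vehicle (log2 fold change 0.03, SE 0.0852). Fbn2, the fibrillin mostly made before birth, ranged from 418 to 569 after IC and from 469 to 610 after vehicle (log2 fold change −0.14, SE 0.187). Eln had 27421, 27421 and 30890 after IC and 24354, 25513 and 27642 after vehicle (log2 fold change 0.15, SE 0.081). Only vehicle replicate 3 of Eln lay within the IC range. Fbn1 shares 2442 exon bases with Gm9913 on the opposite strand, which had 161 to 206 counts.

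Of the 10 members, all of which passed the filter of at least 10 counts in at least 3 libraries, DESeq2 called 2. Ltbp2 was the 1 called higher and Tgfb2 the 1 called lower. Over all 19925 genes tested, 2.10% were called, 1.03% higher and 1.07% lower after IC. These shares count 3870 genes without an adjusted p, which could not be called. Values of the groups did not overlap for 3 members and for 15.8% of all tested genes. Because the family was put together knowing the result of Ltbp2, nothing is read from these shares. The members' median log2 fold change was −0.04, with 5 above 0 and 5 below, and the median over all tested genes was 0.00 at 2 decimals. As a description of where the calling threshold fell, Tgfb2 at −0.49 was the called member with the smaller change and Tgfb3 at −0.21 the uncalled member with the largest.

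**Figure D3:**
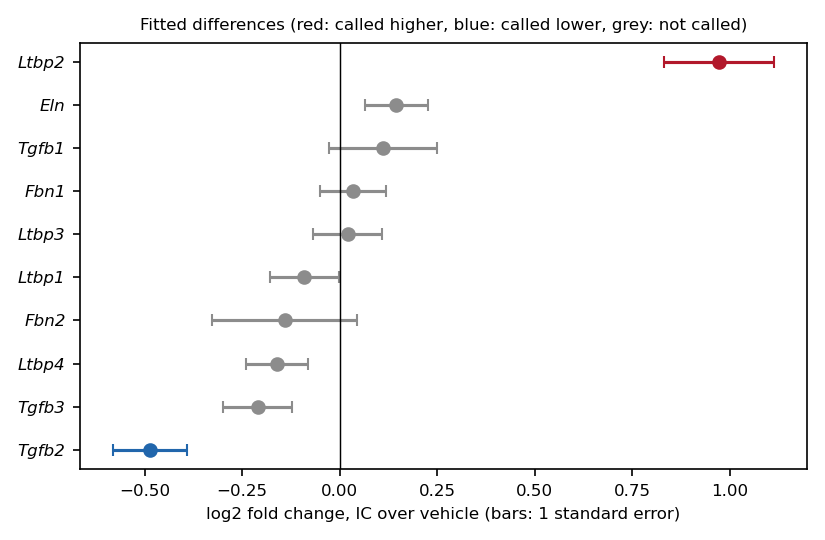
Fitted log2 fold change of each gene, IC over vehicle, with 1 standard error either side. Ltbp2 at 0.97 stands to the right of the other 9 genes, which run from −0.49 for Tgfb2 to 0.15 for Eln.

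Because the members differ so much in level, the composition of each family was also compared on the TPM scale. Ltbp2 made up 0.857%, 1.10% and 0.923% of the summed latent TGF-beta binding protein level in the IC libraries and 0.515%, 0.442% and 0.395% in the vehicle libraries. Its share was thus higher in every IC library, and 1.10% at most. Ltbp4 made up 78.3% ± 0.435 in IC and 80.1% ± 0.0219 in vehicle libraries (SD, n = 3 each), and Ltbp3 10.3% ± 0.273 and 9.33% ± 0.330, neither overlapping between groups. Shares of one sum are not independent of one another. The sum itself was 1563 ± 26.3 TPM after IC and 1681 ± 131 after vehicle, with overlapping values. Ltbp4 stood at 71.3 to 91.7 times the TPM of Ltbp2 in the IC libraries and at 155.5 to 202.5 times in the vehicle libraries.

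Tgfb2 made up 29.1%, 28.5% and 31.8% of the summed ligand level after IC and 35.0%, 34.6% and 34.0% after vehicle. The groups did not overlap. Tgfb3 made up 61.3% ± 0.640 and 58.6% ± 0.983 (SD, n = 3 each), also apart, and Tgfb1 8.89% ± 1.13 and 6.82% ± 1.17, with overlap. The summed ligand level ranged from 291.2 to 311.9 TPM after IC and from 344 to 382.9 TPM after vehicle. Summed latent TGF-beta binding proteins stood at 4.95 to 5.44 times the summed ligands after IC and at 4.45 to 4.81 times after vehicle. Leaving Ltbp2 out of the binding protein sum gave 4.91 to 5.38 and 4.43 to 4.79. With Ltbp2 at most 1.10% of that sum, leaving it out could change the ratio only little. Fbn1 made up 99.66% to 99.79% of the fibrillin sum in the 6 libraries.

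**Figure D4:**
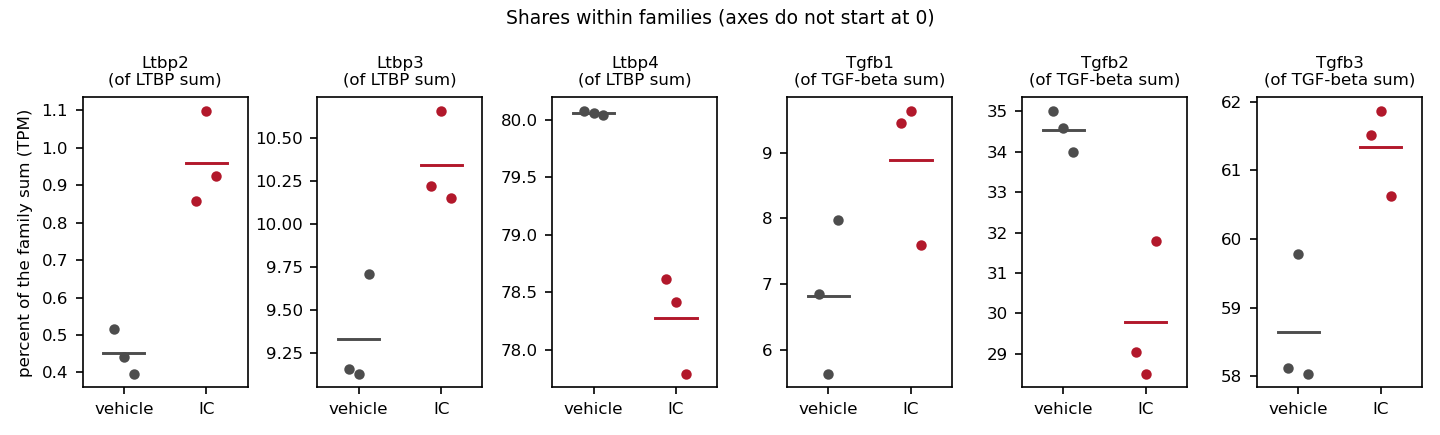
Share of 6 genes in their family's summed TPM, one point per library with the group mean as a line (grey, vehicle; red, IC; axes do not start at 0). The IC points of Ltbp2 lie at 0.857% to 1.10% against 0.395% to 0.515% in vehicle, and those of Tgfb2 at 28.5% to 31.8% against 34.0% to 35.0%.

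The sort was checked against marker genes, and other cell types were summed in CPM, which are counts scaled to the library total. The 7 fibroblast markers, among them Pdgfra, Thy1 and Prg4, summed to 3110 to 3410 CPM after IC and 3188 to 3487 after vehicle. On normalised counts, 3 of 7 genes of this list did not overlap between groups, against 15.8% of all tested genes. The genes apart can differ between that scale and CPM. In CPM, Prg4, the lubricin gene of the synovial lining, had 361 to 473 after IC and 178 to 281 after vehicle. Pdgfrb was also higher after IC, with 450 to 455.9 and 404.6 to 438.1. Pdgfra was lower, with 910 to 980 and 1003 to 1101, as was Lum, with 794 to 956 and 1103 to 1148. The part of this shift among fibroblast markers in the members' differences was not tested. Satellite cell markers (3 genes) summed to 4.42 to 20.6 CPM after IC and 24.7 to 57.8 after vehicle, and endothelial markers (5 genes) to 66.3 to 107 and 113.8 to 154.5, so both were lower after IC without overlap of the sums. On normalised counts, all 3 satellite cell markers and 3 of 5 endothelial markers did not overlap between groups, against 15.8% of all tested genes. None of either list was at 0 in any library. Skeletal muscle markers summed to 19.5 to 37.9 CPM and 33.9 to 76.1. When the fit also held a skeletal muscle score, the log2 fold change was 1.06 (SE 0.221) for Ltbp2 and −0.52 (SE 0.153) for Tgfb2. The standard error of Tgfb2 was 0.0952 without the score. Tgfb2 was then no longer called, and 42 of all genes were. The part of satellite and endothelial cells in the differences of Ltbp2 and Tgfb2 was not tested. The ranges of mural, chondrocyte, macrophage, leukocyte, Schwann and adipocyte sums overlapped between groups, with macrophage markers at 23.95 to 36.1 CPM over both. Single genes of these lists did not overlap on normalised counts, namely 2 of 6 mural, 2 of 5 chondrocyte, 1 of 2 leukocyte and 1 of 3 adipocyte markers. With 15.8% of all tested genes apart and so few genes per list, nothing is read from these counts. The leukocyte gene apart was S100a8, at 0 in all vehicle libraries and 0.111 to 0.261 CPM after IC. Most of the leukocyte sum was Cd79a. Col9a1 and Matn3 of the chondrocyte list and Adipoq of the adipocyte list were at 0 in some libraries. Most of the macrophage sum was Cd68, at 21.9 to 31.4 CPM. Csf1r, Lyz2 and Mrc1 each lay between 0.407 and 2.61 CPM. Ptprc and Cd3e of the leukocyte list, Adgre1 of the macrophage list and Lep of the adipocyte list were not found among the gene symbols. The sort was therefore not checked against them.

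The pathway around the family was then described with 63 further genes listed by role, of which 62 passed the count filter. DESeq2 called 7 of these 62 (11.3%, against 2.10% of all tested genes), 4 higher and 3 lower. The median log2 fold change was 0.00 at 2 decimals, with 31 above 0 and 31 below, and 16 of 62 (25.8%, against 15.8% of all tested genes) did not overlap between groups. The list was drawn up with earlier results of these data known, so its share is not independent evidence. The count depended on single libraries, being 4 without IC replicate 1, 2 without IC replicate 2, 17 without vehicle replicate 1, 3 without vehicle replicate 2 and 3 without vehicle replicate 3. The edgeR quasi-likelihood test called 1, Lox.

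Of the 5 receptor genes none was called. Tgfbr2, the receptor that binds the ligand first, had 20997 to 27179 normalised counts after IC and 25082 to 30090 after vehicle (log2 fold change −0.19, SE 0.1). Tgfbr3, or betaglycan, a co-receptor that presents Tgfb2 in particular, ranged from 25279 to 26463 and from 23566 to 27688 (log2 fold change 0.05, SE 0.0807). Both overlapped between groups.

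Of 9 SMAD proteins and regulators, 1 was called (11.1%, against 2.10% of all tested genes), and 8 had a log2 fold change above 0, as had 9881 of all 19925 genes tested. With so few genes, nothing is read from these counts. Smad7, an inhibitory SMAD that TGF-beta itself induces, had 4653, 5280 and 5673 normalised counts after IC and 4105, 3748 and 4331 after vehicle. The groups did not overlap, and its log2 fold change was 0.36 (SE 0.1, adjusted p = 0.0197 by DESeq2). The call was kept in 3 of 6 fits with a library left out, where adjusted p ran from 0.00483 to 0.176, and edgeR gave 0.175. Skil, a repressor of SMAD activity, had means of 15060 ± 1256 and 12120 ± 1638 (SD, n = 3 each) with no overlap and an adjusted p of 0.0755 by DESeq2. Ski, the related repressor, had a log2 fold change of −0.04 (SE 0.0823).

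Of 15 genes of latency and activation, 14 were tested and none was called, while Mmp9 was below the count filter. The list holds the integrin subunits and proteases that release the ligand. The most abundant were Dcn, a small proteoglycan that binds TGF-beta, with a log2 fold change of −0.17 (SE 0.0918), and the protease Mmp2, with −0.09 (SE 0.0763). Both overlapped between groups.

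Of 19 genes of microfibril and elastic fibre assembly, 3 were called (15.8%, against 2.10% of all tested genes), 1 higher and 2 lower. Nothing is read from a count of so few genes. Lox, the lysyl oxidase that crosslinks elastin and collagen, had 19191, 20363 and 23075 normalised counts after IC and 9123, 12078 and 12234 after vehicle. All IC libraries were above all vehicle libraries, with a log2 fold change of 0.91 (SE 0.111, adjusted p = 8.53e-13 by DESeq2), and the call was kept in 6 of 6 fits with a library left out. Loxl1, a lysyl oxidase of elastic fibres, had a log2 fold change of 0.01 (SE 0.108), named after its values were seen.

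Mfap2, a small protein of microfibrils, had 1309, 1196 and 1376 normalised counts after IC and 1634, 1684 and 1683 after vehicle. It was lower after IC with no overlap, with a log2 fold change of −0.37 (SE 0.112, adjusted p = 0.0446 by DESeq2). Fn1, fibronectin, on which fibrillin and latent TGF-beta binding proteins are first deposited, had 247241, 204233 and 243430 after IC and 250920, 340595 and 289859 after vehicle. Its log2 fold change was −0.34 (SE 0.106, adjusted p = 0.0494 by DESeq2). These calls were kept in 2 and 1 of 6 fits with a library left out, with adjusted p up to 0.228 and 0.475, and edgeR gave 0.151 and 0.308.

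Fbln2, the most abundant fibulin listed, had means of 50870 ± 391 in IC and 45812 ± 5306 in vehicle libraries (SD, n = 3 each), with a log2 fold change of 0.15 (SE 0.0869) and no call. Fbln5, a fibulin that binds elastin and interacts with the Ltbp2 protein, was named after its values were seen. It had 7358, 7235 and 6999 normalised counts after IC and 7774, 9769 and 8921 after vehicle. The groups did not overlap, and its log2 fold change of −0.29 (SE 0.0932) had an adjusted p of 0.0587 by DESeq2.

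Of 15 genes known as targets of TGF-beta, 3 were called (20%, against 2.10% of all tested genes), 2 higher and 1 lower. Here too, nothing is read from the count. Timp1, an inhibitor of metalloproteinases, had 915, 1135 and 1172 normalised counts after IC and 671, 429 and 646 after vehicle. The groups did not overlap, and the log2 fold change was 0.89 (SE 0.184, adjusted p = 0.000272 by DESeq2). It was called in 6 of 6 fits with a library left out, and edgeR gave an adjusted p of 0.0836.

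Nox4, an oxidase that makes hydrogen peroxide, had 3169, 3238 and 2779 normalised counts after IC and 2246, 2477 and 2327 after vehicle, a log2 fold change of 0.38 (SE 0.101, adjusted p = 0.0108 by DESeq2). Col3a1, a fibrillar collagen, had 580251, 550884 and 606669 after IC and 631916, 832237 and 792405 after vehicle, a log2 fold change of −0.38 (SE 0.0961, adjusted p = 0.00679 by DESeq2). Neither gene overlapped between groups, but the calls were kept in 3 and 2 of 6 fits with a library left out, with adjusted p up to 0.127 and 0.173. The target genes as listed did not share a direction, with 7 log2 fold changes above 0 and 8 below. Col1a1, a chain of type I collagen and with Col3a1 the most abundant of the list, had a log2 fold change of −0.12 (SE 0.095) and overlapped.

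**Figure D5:**
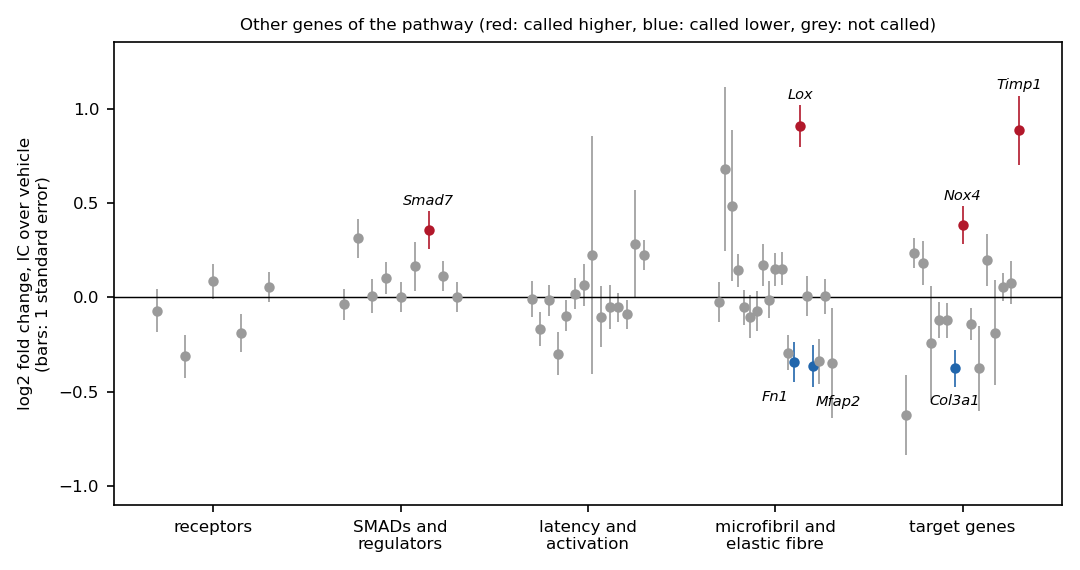
Fitted log2 fold changes, IC over vehicle, with 1 standard error, for the 62 tested pathway genes by role (red, called higher; blue, called lower; grey, not called). Lox at 0.91 and Timp1 at 0.89 lie above the other called genes, and no receptor or latency gene is coloured.

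The genes whose pattern was most like that of Ltbp2 were sought among 13425 genes with a mean of at least 100 normalised counts, by the root mean square difference of centred log2(normalised count + 1) over the 6 libraries. The nearest was Pik3r5, a regulatory subunit of phosphoinositide 3-kinase gamma, at 0.106. Its values were 224, 304 and 225 normalised counts after IC and 132, 137 and 139 after vehicle, so that IC replicate 2 was highest for it as for Ltbp2. It was followed by 3930402G23Rik at 0.125, the sphingosine kinase gene Sphk1 at 0.141, the small Cajal body RNA Scarna9 at 0.156 and Dnm3os, a non-coding RNA antisense to Dnm3, at 0.16. Dnm3os was the most abundant of these, with means of 7772 and 4695 normalised counts. This likeness uses the same libraries and the same difference between groups as Ltbp2 itself.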

How the data were processed

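Total RNA was sequenced from sorted synovial fibroblasts (3 IC and 3 vehicle libraries). The authors deposited raw read counts per gene, and the submitters' notes name Trim Galore, FastQC, HISAT2, featureCounts and the build mm10. Versions, annotation and use of strand are not given in the sources used here, and different stranded library kits are named in the labels and in the methods. Total counts ranged from 40114331 to 56714304 per library. Libraries of one group differed beyond sampling noise (chi-square per degree of freedom 15.2 to 68.4). Pairs of IC libraries gave 15.2 to 32.2. Vehicle replicate 1 gave 68.4 with vehicle replicate 2 and 41.5 with vehicle replicate 3, while vehicle replicates 2 and 3 gave 23.5.

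A filter of 10 or more counts in 3 or more libraries kept 19925 genes. These were tested with the Wald test of DESeq2 (1.42.0, R 4.3.3), with treatment as the only term. Benjamini-Hochberg adjustment at 0.05 followed the default independent filtering of DESeq2. In all, 3870 of the tested genes had no adjusted p and could not be called. The study's methods name DESeq2 and sva without the number of surrogate variables. TPM used merged exons of GENCODE M21, matched for 98.1% of symbols. Alternatives were edgeR (4.0.16), limma-voom (limma 3.58.1), TMM or total-count scaling, other filters, the replicate block, 1 surrogate variable (sva 3.50.0), a skeletal muscle score and each library left out. The fit was tested on simulated data. Members and gene lists were chosen with earlier results of these data known. Named genes were the members, in each role the called genes and the 2 with the highest mean, and the 5 genes most like Ltbp2. Loxl1 and Fbln5 fell outside this rule.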

Additional observations from a re-analysis of the deposited data

How the results depend on the processing

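Members called, 2 as reported, were 1 with edgeR and 1 with the skeletal muscle score, where Tgfb2 was not called. The call of Ltbp2 is no evidence under any setting, since its difference chose the family. With 1 library left out, 2 to 4 members were called, the 4 without vehicle replicate 1. Pathway genes called, 7 as reported, were 1 with edgeR, 1 with limma-voom, 1 with the skeletal muscle score, 4 with 1 surrogate variable, and 2 to 17 with a library left out. With the replicate number as a block 4 pathway genes and 320 of all genes were called against 419. Same-numbered libraries did not deviate together (correlations −0.0918, −0.164 and 0.025 over 13435 genes), and 0 of 6 libraries correlated best with their own number. With so few libraries this check cannot decide whether same-numbered libraries share a batch or a pairing. All genes called numbered 37 with edgeR, 62 with limma-voom and 42 with the muscle score, and 281 to 677 with a library left out. Of the members' log2 fold changes under alternatives, 151 kept direction and side of the threshold, 5 changed sign, 2 newly passed it (Ltbp4 and Tgfb3, both without vehicle replicate 1) and 2 no longer did (Tgfb2). Ltbp3 changed sign with the muscle score (−0.0268) and spanned −0.0696 to 0.0785 with a library left out, and Fbn1 spanned −0.0176 to 0.103. The cause was not tested. Fbn2, the member with the fewest counts, had the largest standard error of the log2 fold change (0.187).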
